A study of Mus musculus with 2 samples.

Results

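Chromosome region probes are microarray probes whose target is named only by a chromosome, a start, an end and a strand letter, F or R, with no transcript accession. Of 55681 non-control probes on the array, 16181 carried such a name, and they fell into 3540 regions of the mouse genome build mm9. Of these regions, 1067 had probes of both letters, 1251 had F probes only and 1222 had R probes only. There were 8171 F probes and 8010 R probes. A further 13 probes in 3 regions were named by coordinates without a strand letter and were not counted as members.

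The samples were liver RNA of male C57BL/6 mice with liver fibrosis. One group received recombinant TSG-6 into a vein; TSG-6 is a secreted protein that binds hyaluronan and is made in inflamed tissue, and the control group received PBS, the vehicle. RNA was taken 2 weeks later, and equal amounts from 3 mice per group were mixed and hybridised to 1 one-colour Agilent array per group. How fibrosis was induced and the age of the mice are not given in the sources used here, and a liver without fibrosis was not analysed here. With 1 array per group there was no replicate and no test, so every difference below is one between these 2 pools, and array and group cannot be told apart. A difference in level in whole liver cannot tell a change in the number of cells of a type from a change of RNA per cell.

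Much of a mammalian genome outside protein-coding genes is transcribed. Long intergenic noncoding RNAs are spliced, polyadenylated transcripts that lie between genes, and many carry the chromatin marks of active promoters and transcribed gene bodies, which has been used to find them as long intervals before their exact exons or strand were known. An interval found in this way does not say which strand is copied, so an array can carry probes for both strands and read the transcribed one from the signal. Well-known members of the class act in imprinting, chromosome inactivation and the assembly of nuclear bodies, while most have no known role. The strand letters were read here as forward and reverse; whether the letter gives the strand of the transcript or of the probe is not stated in the sources used here. No probe sequence and no mm9 gene annotation was used here, so the regions are given by position, and whether a probe lies in an exon, an intron or outside any gene was not checked.

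Regions were 62 to 7128487 bp long, with a median of 7316 bp and quartiles of 787 and 21816 bp. The regions with both letters were the long ones, with a median of 17901 bp against 2173 bp for F only and 2205 bp for R only. None of them was shorter than 5026 bp. They also carried more probes, a median of 5 per strand against 3. One region and strand held between 1 and 10 probes, each printed as a single spot. Many regions were not separate places: 2101 of the 3540 (59.4%) overlapped another region, so that several region names could report on one transcript. The shortest, chr10:83399729-83399790 F, gave a processed signal of 118 in PBS and 81.9 in TSG-6. The longest, chr7:39351858-46480344 R, gave 5.26 and 4.08 and was above background on neither array.

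Most region probes were above background in fibrotic liver, though fewer than among the probes with an accession. A probe was called detected when the scanner software marked its spot as well above background, and spots flagged as outliers were left out. Of the 15706 region probes usable on both arrays, 63.5% were detected in PBS and 66.5% in TSG-6. For the other probes of the array the shares were 74.9% and 76.1%. Probes of curated protein-coding messages, with RefSeq accessions starting NM_, stood at 80.2% and 80.7%. Those of RefSeq noncoding RNAs (NR_) stood at 64.6% and 66.7%, and those of cDNA clones with AK accessions at 60.9% and 63.7%. The region probes thus lay near the noncoding and clone classes and below the coding class on both arrays.

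The region probes were dim as well as less often detected. Their median signal was 56.9 in PBS and 52.2 in TSG-6, against 284 and 227 for the other probes. No region probe was saturated. A few were very bright: chr2:143963320-143984245 F gave 88023 and 96196, chrX:33750475-33770425 F gave 85982 and 83269, and chr14:78924115-78938125 F gave 85227 and 87067. The probe in chr14:49314574-49358174 F ranked among the brightest 3 in TSG-6 only, with 76374 in PBS and 88131 in TSG-6. The log2 differences of these bright probes were 0.48, 0.30, 0.38 and 0.56, all under 2-fold.

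F and R probes were detected about as often as each other. In PBS 62.9% of F probes and 64.3% of R probes were detected, and in TSG-6 66.2% and 66.8%. Within some regions, however, the letters differed. Probes of different sequence bind with different strength, so the level of one strand was not set against the other, and a strand was called detected when at least 50% of its usable probes were. Of 1054 regions with usable probes of both letters, both strands were detected in 60.8% on the PBS array, F alone in 9.77%, R alone in 13.3% and neither in 16.1%. In TSG-6 the shares were 64.8%, 9.87%, 12.4% and 12.9%. The strand state was the same on both arrays in 912 of the 1054 regions (86.5%), and in 2 regions it passed from one letter alone to the other. Detection on both strands was the most frequent state, ahead of a single strand or none, on each array.

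**Figure D1:**
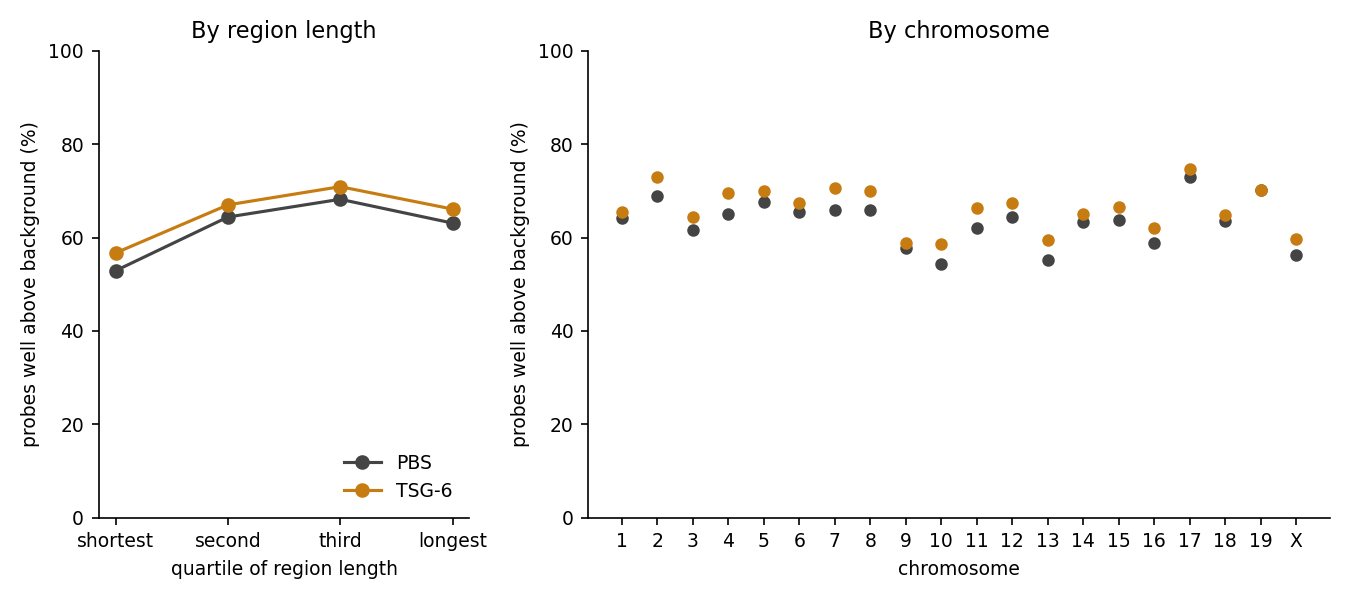
Share of region probes well above background for PBS (grey) and TSG-6 (orange), by quartile of region length (left) and by chromosome (right); both vertical axes run from 0 to 100%. The shortest quartile is lowest on both arrays, at 52.9% and 56.7%, and chromosome 17 is highest among the chromosomes, at 73.0% and 74.6%.

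Short regions were detected least. In the quartile of 62 to 785 bp, 52.9% of probes were detected in PBS and 56.7% in TSG-6. The share was 64.4% and 67.0% from 788 to 7304 bp and 68.2% and 70.9% from 7327 to 21813 bp. It was 63.1% and 66.1% in the longest regions, so it did not go on rising with length. Over 3506 regions, Spearman's rho of length with the share of a region's probes detected was 0.08 on each array, a description over regions that share the same 2 arrays. Length and strand design went together: no region of the shortest quartile had probes of both letters, while 79.8% of the probes of the longest quartile lay in such regions. From 788 to 7304 bp, probes of regions with both letters were detected at 70.9% in PBS and 72.5% in TSG-6, against 60.8% and 63.9% for regions with one letter. From 7327 to 21813 bp the order was the other way, at 67.7% and 70.4% against 70.0% and 72.8%.

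By chromosome, the share detected on the PBS array ran from 54.3% on chromosome 10 and 55.3% on chromosome 13 to 70.2% on chromosome 19 and 73.0% on chromosome 17. The TSG-6 array gave 58.6%, 59.4%, 70.2% and 74.6% for the same chromosomes. Chromosomes 1 to 19 together stood at 63.8% and 66.8%, and the X chromosome at 56.2% and 59.7%. The TSG-6 share was at or above the PBS share on each of the 19 autosomes and on X. The letters differed most on chromosome 16, with 54.0% of F and 64.5% of R probes detected in PBS, and on chromosome 9, with 62.1% of F and 52.9% of R probes.

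Between the pools, region probes were slightly higher in TSG-6 as a group, and among them higher calls outnumbered lower ones; scaled to the spike-in controls, both of these turned the other way. Levels are the log2 processed signal relative to that array's 75th percentile. Differences are TSG-6 minus PBS, and a probe was called at 2-fold, a log2 difference of 1. Of the 9666 region probes detected on both arrays, 361 (3.73%) passed on the higher side and 166 (1.72%) on the lower side, together 527 (5.45%). Over all 36398 probes detected on both arrays, 3.48% were higher and 3.16% lower, together 6.64%. The share of higher calls was thus near the background, and the share of lower calls was below it. Split by signal, higher calls were rarer than among the other probes from the dimmest class (3.40% against 4.90%) to the middle one. They were more frequent in the brighter classes, at 5.44% against 3.19% and 1.27% against 1.14%. Lower calls were rarer in every signal class. An excess of higher calls was not particular to region probes under this scaling. The shares were 7.58% higher and 3.41% lower for NR_ probes, 5.69% and 2.65% for Ensembl transcripts, and 5.16% and 2.55% for AK clones. In each of these classes both shares were above those of the region probes. NM_ probes went the other way, with 2.87% higher and 4.26% lower. F probes gave 165 higher and 80 lower, and R probes 196 higher and 86 lower. Higher calls made up 68.5% of the region calls, and this split moved with the scaling. It was 50.3% after quantile normalisation, 49.4% with each array scaled to its median, 93.2% with the percentile taken over unflagged spots only, 44.3% centred on all measured probes and 18.5% on the spike-in controls.

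The median difference over the region probes was 0.23, with quartiles of -0.05 and 0.47, against 0.12 over the other probes; scaled to the spike-in controls the region median was -0.14, the opposite sign. The gap between region and other probes was less dependent on scaling and lay between 0.08 and 0.12 under each of the scalings tried. F probes had a median of 0.24 and R probes of 0.23. The median was 0.07 for NM_ probes, and 0.23 for NR_ probes, 0.23 for Ensembl transcripts and 0.26 for AK clones. The region probes therefore had the same median as the noncoding class. With the probes split by signal into 5 classes, the region median stayed between 0.22 and 0.24, while that of the other probes ran from 0.01 to 0.20.

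**Figure D2:**
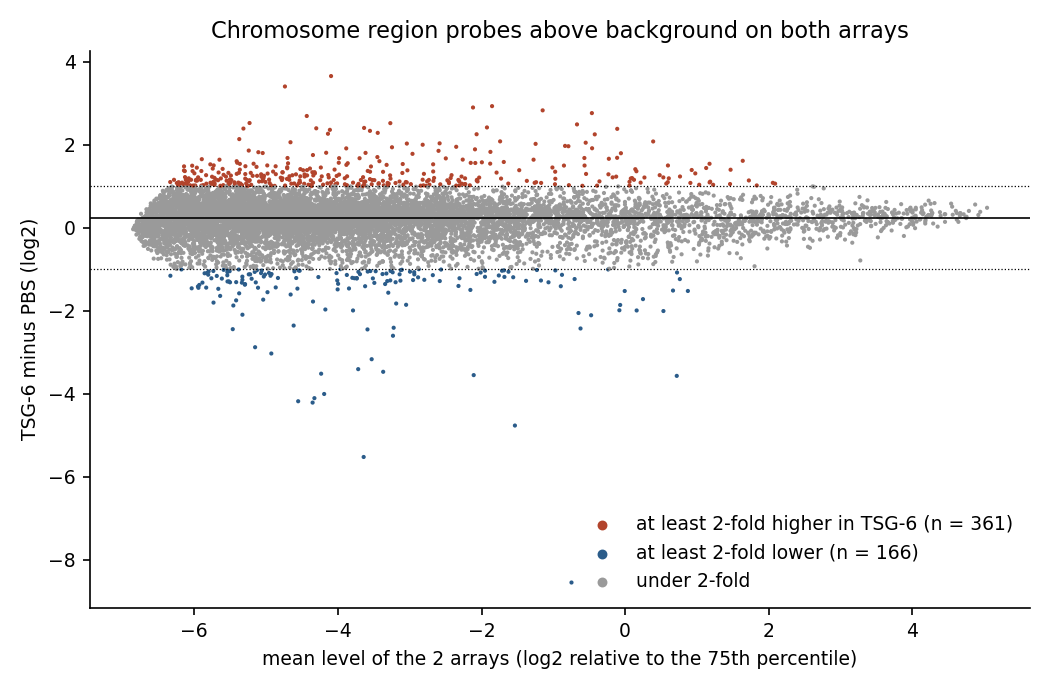
Each of the 9666 region probes detected on both arrays, by its mean level (horizontal, log2 relative to each array's 75th percentile) and its TSG-6 minus PBS difference (vertical, log2); the solid line is the median of 0.23 and the dotted lines mark 2-fold. The 361 higher probes (red) are more numerous than the 166 lower ones (blue), but the most extreme differences are on the lower side, down to -8.55.

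Of 1575 region strands with 3 or more measured probes, 680 (43.2%) had every probe above 0 and 185 (11.7%) every probe below 0. The region median of 0.23 under this scaling, -0.14 on the spike-in controls, raises the first count and lowers the second. The SD among probes of one region strand, pooled over the strands, was 0.37 (median SD 0.24), and the SD of the medians across region strands was 0.45. The probes of one strand thus spread nearly as widely as the strands did. Replicate spots of other probes gave an SD of 0.13 for the log2 difference, which measures spot noise only. Agreement of several probes is a check on a single probe's behaviour, not a replicate of the treatment. In 19 region strands (1.21%), lying in 18 regions, every measured probe was at least 2-fold higher, and in 6 (0.381%) every one was at least 2-fold lower. Over all 1947 region strands and transcripts with 3 or more probes, the shares were 0.976% and 0.411%, together 1.39% against 1.59% of the region strands. The 1575 region strands are most of these 1947 names, and all 19 higher names are region strands. These shares are therefore close by construction and are not a comparison with a separate set.

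**Figure D3:**
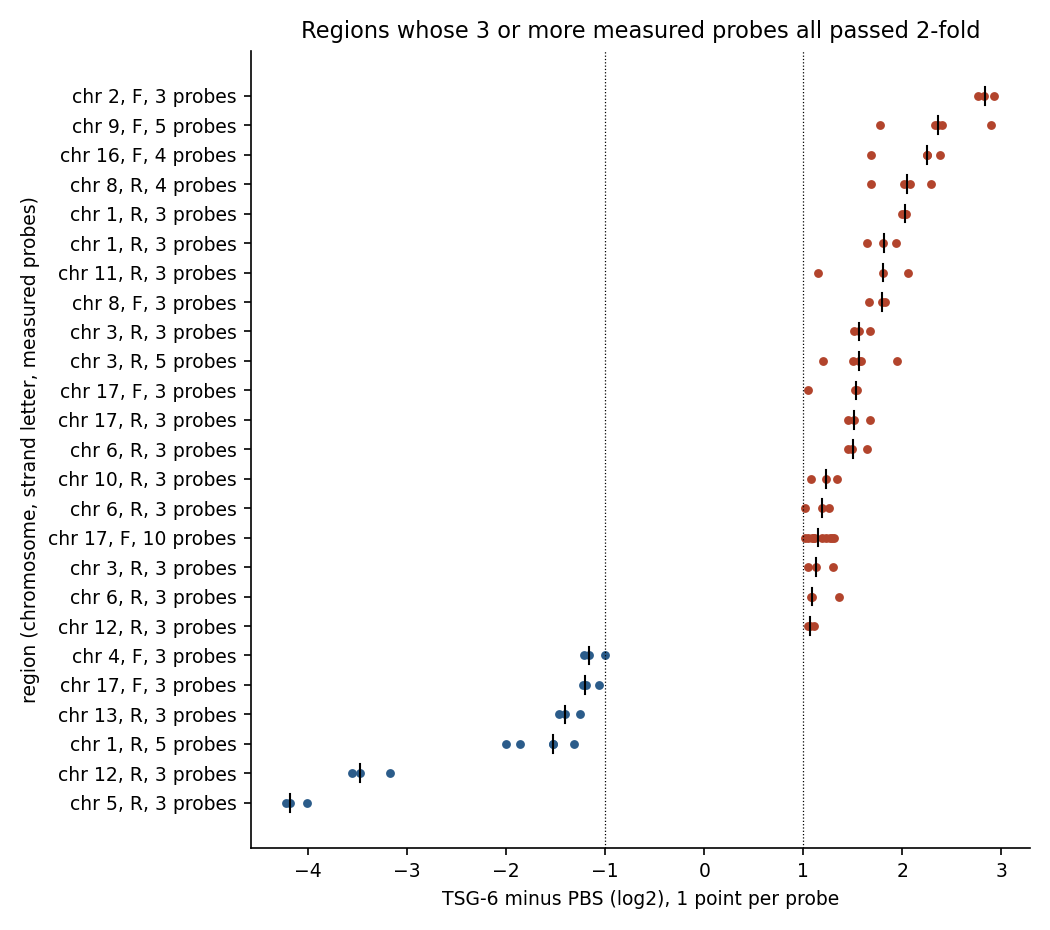
The 25 region strands with 3 or more measured probes that all passed 2-fold; each point is the TSG-6 minus PBS difference (log2) of 1 probe, the black tick is the median, and the dotted lines mark 2-fold. The lower strands on chromosomes 5 and 12 stand apart at -4.18 and -3.47, and the other 23 medians lie between -1.53 and 2.83.

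The lowest region strand was chr5:22890322-22939119 R, of 48798 bp. Its 3 probes gave 667, 694 and 573 in PBS and 28.1, 33.8 and 24.7 in TSG-6. All 3 went from well above background to just above it, and the median probe was 18.2-fold lower. The region chr5:22887983-22939658 R overlaps it and has 3 other probes, at 654, 619 and 219 in PBS and 29.7, 19 and 56.1 in TSG-6. All 6 probes of these 2 regions were therefore lower, 5 of them by more than 16-fold or, for the probe not above background in TSG-6, by at least 25.5-fold, and the sixth by 3.06-fold. With normexp background correction the median of the first region was -2.34 in place of -4.18, the same direction and a smaller size. The longer region around them, chr5:22801058-22939737, did not share the difference: its 6 measured R probes ran from -0.06 to 0.55 (median 0.34) and its 10 F probes from -0.03 to 0.90. Inside it, chr5:22905597-22939154 R had 2 probes at a median of -0.89 and chr5:22926562-22927468 R 2 probes at 0.29. Low and little-changed R probes thus lay in one stretch of chromosome 5.

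A second R strand, chr12:82457625-82476325, was lower in all its probes in the same way. Its probes stood at 1019, 821 and 2509 in PBS and at 71.9, 71.4 and 167 in TSG-6. The differences were -3.47, -3.17 and -3.55, an 11.1-fold lower level at the median probe; with normexp the median was -2.46. Each of the 3 probes was lower, by 9.01-fold to 11.7-fold.

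A bright region on chromosome 1 was lower on both letters. In chr1:193815525-193825775 the 5 R probes ran from 2378 to 9821 in PBS and from 749 to 2674 in TSG-6, with a median difference of -1.53. Its 1 F probe went from 8478 to 2324, a difference of -1.52. The 5 R probes were between 2.49-fold and 3.99-fold lower. The remaining lower region strands were chr13:90247709-90253992 R, chr17:56790296-56803875 F and chr4:88582120-88582754 F, with medians of -1.41, -1.20 and -1.16.

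On the higher side, chr2:67836003-67836461 F, only 459 bp long, led. Its 3 probes gave 880, 535 and 317 in PBS and 4677, 2975 and 1891 in TSG-6. Every probe was higher, and the folds were 6.78-fold, 7.10-fold and 7.61-fold. Next to it in rank stood chr9:106170918-106177894 F, whose 5 probes went from 80.7, 219, 267, 120 and 110 to 324, 589, 1556, 473 and 458. Its median difference was 2.36, and 4 measured R probes of the same region had a median of 1.62.

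Both letters were also higher together in chr16:23992037-24001037 and chr8:10886200-10905925. In the chromosome 16 region, 4 F probes went from 1081, 67.8, 1282 and 345 to 4027, 170, 5238 and 1288, and 5 R probes had a median of 2.08 beside 2.25 for F. Another 2 F probes there, at 3454 and 989 on the PBS array, were flagged on the TSG-6 array and give no difference. In the chromosome 8 region the 3 F probes went from 1518, 457 and 1628 to 3762, 1270 and 4427. Its 4 R probes went from 1631, 460, 131 and 661 to 4107, 1523, 502 and 2101. The medians were 1.79 for F and 2.05 for R, and each of the 7 probes was at least 3-fold higher.

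Other higher strands carried the letter R. chr1:73664661-73911040 R, of 246380 bp, had 3 probes at 260, 224 and 190 in PBS and 835, 701 and 608 in TSG-6. Its differences were the most even of these, from 2.0 to 2.03. chr1:71984564-71985074 R, chr11:53596919-53672731 R and chr3:121627545-121639470 R had medians of 1.81, 1.80 and 1.56; with normexp the second was 1.20. In chr3:21964899-21974524 the 5 R probes had a median of 1.56 and ran from 1.20 to 1.95, while 3 measured F probes had a median of 0.66. The other 9 higher strands had medians between 1.07 and 1.53. Of these, chr6:31007184-31007725 R, chr6:31078802-31079644 R and chr6:31115515-31168433 R lie near each other and stood at 1.19, 1.09 and 1.5. The longer region chr6:31017987-31174287, which holds the last 2 of them, had 2 R probes at a median of 0.03 and 4 F probes at 0.34.

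Across 7 other scalings or normalisations, 9 of the 19 higher and 3 of the 6 lower region strands had every probe past 2-fold in each, and none of the 25 medians changed sign. The 9 include the strands of chromosomes 2, 9, 16 and 8 described above and chr1:73664661-73911040 R. The 3 lower ones are those of chromosomes 5, 12 and 1 with medians of -1.53 or below.

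Single probes gave more extreme differences than any region did, and on the lower side their neighbours often did not share them. The lowest probe of all lay in chr12:73838608-73862621 R, with 36462 in PBS and 76.1 in TSG-6, a difference of -8.55. The 3 other measured R probes of that region differed by 0.26 to 0.46 and its 3 measured F probes by 0.24 to 0.37. A shorter R region inside it, chr12:73860757-73862034, had 3 probes that were all higher, at 1.05 to 1.11. In this place, 1 probe was 376-fold lower and none of the other 9 measured probes was lower.

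Others of this kind were seen. In chr1:115829055-115854155 R, 1 probe went from 1719 to 29.2 (-5.53) while the other 6 R probes were detected on neither array. In chr11:97275905-97310538 F, 1 probe went from 5691 to 164 (-4.77) while 5 others on the strand ran from -0.34 to 0.96. The 4 measured R probes of that region ran from -0.1 to 0.18. In chr18:61781410-61788685 F, 1 probe went from 17930 to 1182 (-3.57) while 4 others ran from -0.55 to 0.53. The 5 R probes of this last region were all lower too, at -0.98 to -0.44 (median -0.67). With normexp the first of these 3 was -3.62, and the lowest probe, of chromosome 12, was -7.59. These single probes were much brighter on the PBS array. The other probes of their strands differed by under 2-fold or were detected on neither array. The region chr10:60473030-60535340 had 1 such probe on each letter, F from 569 to 38.9 (-3.52, or -2.17 with normexp) and R from 241 to 25.6, while its 5 other measured F probes ran from -0.04 to 0.43. In chr1:115829055-115854155, 1 F probe was lower as well, from 780 to 115 (-2.41), while the F median was 0.26.

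Among all called probes with at least 2 other measured probes on the same region strand, the other probes had a median past 2-fold in the same direction for 119 of 264 higher calls (45.1%) and 41 of 127 lower calls (32.3%). None of the others was past 2-fold for 28.4% of the higher and 47.2% of the lower calls. For 58 of the 127 lower calls (45.7%) the others' median lay within 0.5 of 0, against 55 of 264 higher calls (20.8%). In these 2 arrays the share of calls resting on a lone probe was thus larger on the lower side under this scaling. The region median of 0.23 moves the other probes towards agreement with higher calls and away from lower ones. These counts were not made under another scaling, and the difference was not tested.

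**Figure D4:**
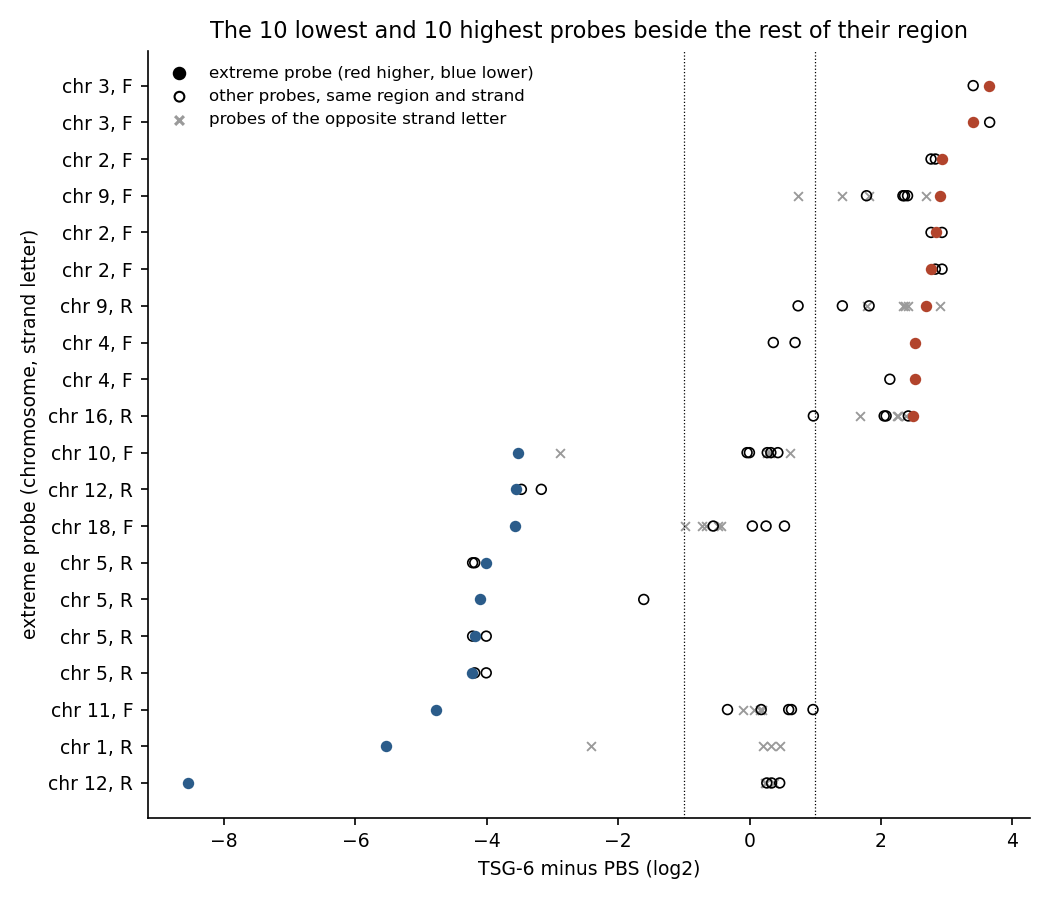
The 10 lowest (blue) and 10 highest (red) region probes by TSG-6 minus PBS difference (log2), beside the other measured probes of the same region and strand (open circles) and those of the opposite letter (crosses); dotted lines mark 2-fold. The probe at -8.55 has its neighbours between 0.24 and 0.46, while the probes near 3 on chromosomes 2 and 9 have neighbours well past 2-fold.

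The highest single probes mostly had company. In chr3:121615836-121616109 F, 1 probe went from 52.1 to 514 and another from 36.4 to 302, differences of 3.65 and 3.40; with normexp they were 2.57 and 1.88. The remaining probe was flagged on the TSG-6 array. In chr4:101040523-101080248 F, probes went from 35.1 to 158 and from 36.4 to 125; the first had a difference of 2.52, and 1.17 with normexp. These places were near background in PBS and clearly above it in TSG-6. An exception was chr4:53315503-53316050 F, where 1 probe had a difference of 2.52 (1.91 with normexp) and the 2 others had 0.36 and 0.69. For 9 of the 10 highest probes, and 5 of the 9 among the 10 lowest that had others measured, the other measured probes of the strand had a median past 2-fold in the same direction. The 10 highest probes came from 7 region strands and the 10 lowest from 8. Probes of one strand thus partly counted for each other, and these counts are not of separate places.

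Some probes were detected in one pool only. Of the 15706 usable region probes, 778 (4.95%) were detected on the TSG-6 array alone and 314 (2.0%) on the PBS array alone, against 3.42% and 1.67% over all probes. For these the fold is a lower bound, taken against the dim probe's own value or, if that was larger, the lowest detected signal of its array (24.1 for PBS, 18.6 for TSG-6). The bound reached 2-fold for 116 of the 778 and 51 of the 314, so most of these probes lay near the detection limit.

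The largest bound was at chr10:92547995-92556102 F, with 5.38 in PBS and 2107 in TSG-6, at least 112-fold higher; the strand has 1 probe only. In chr15:58985008-58985429 F all 3 probes were detected in TSG-6 alone, going from 18.5, 26.7 and 9.68 to 248, 178 and 75.5. They were at least 13.2-fold, 8.48-fold and 4.0-fold higher. On the lower side, a probe of chr1:64686823-64728598 R went from 482 to 8.55, at least 20.4-fold lower. A probe of chr7:144563845-144603732 F went from 444 to 4.74, at least 18.7-fold lower, while 7 other measured probes of its strand were between 0.37 and 1.85. The chromosome 15 region thus had 3 probes that moved together, and the chromosome 7 probe stood alone.

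F and R medians of a region were compared next. In 906 regions both letters had measured probes, and the medians of F and R had the same sign in 710 (78.4%). Both letters share an upward shift, with medians of 0.25 for F and 0.23 for R, which raises this count. Taken about each letter's own median, 572 regions (63.1%) had F and R on the same side. The typical gap between them was 0.23, the upper quartile was 0.42, and 14 regions (1.55%) had a gap of 1 or more. Across regions, Pearson's r between the F and R medians was 0.47 and Spearman's rho 0.41. With at least 2 measured probes on each letter, in 584 regions, they were 0.54 and 0.44. These describe points that share both arrays, their scaling and their place in the genome. Both medians were at least 2-fold higher in 5 regions, and both passed on the lower side in 3. Only F was past 2-fold in 16 regions and only R in 20, and no region had F and R past 2-fold in opposite directions. F lay above R in 475 of the 906 (52.4%), so neither letter was favoured to any extent.

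**Figure D5:**
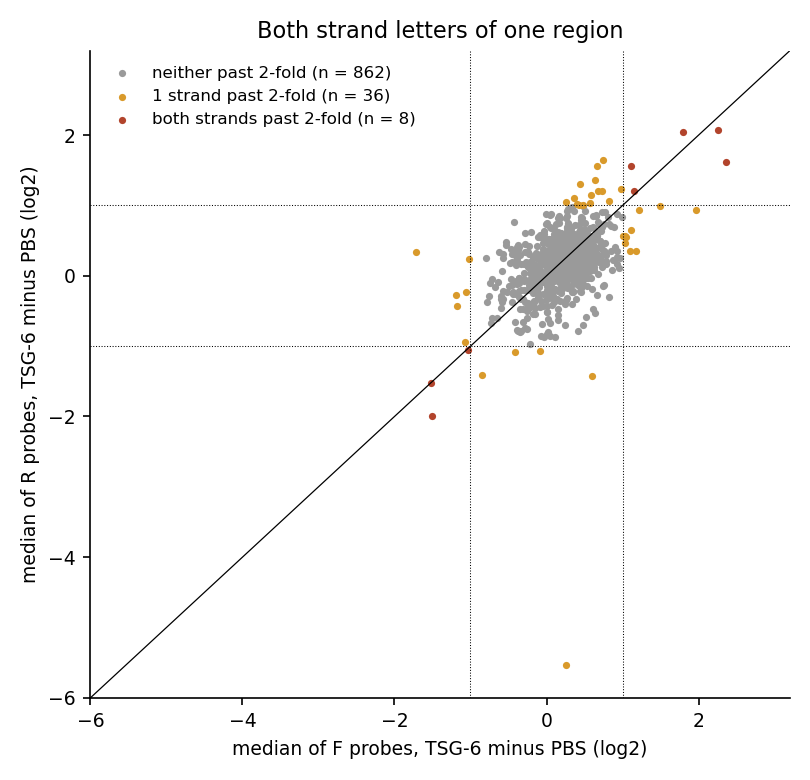
Median TSG-6 minus PBS difference (log2) of the F probes (horizontal) and of the R probes (vertical) in the 906 regions with both measured; the solid line marks equality and the dotted lines 2-fold. The 8 regions with both strands past 2-fold (red) lie near the line, and the 36 with 1 strand past 2-fold (yellow) include a point at 0.26 for F and -5.53 for R, which rests on 1 R probe.

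The densest region on both letters was chr17:26911397-26917047, with 10 F and 10 R probes in 5651 bp. The F probes ran from 1383 to 7908 in PBS and from 2660 to 12552 in TSG-6, with differences of 1.02 to 1.31. The R probes ran from 71.2 to 3260 and from 164 to 6292, with differences of 0.83 to 1.55. All 20 probes were higher, with medians of 1.15 and 1.20. These are just past 2-fold, and scaled to the spike-in controls the F median was 0.78. In chr3:121627545-121639470, F probes went from 63.3 and 169 to 91.2 and 337, and R probes from 136, 116 and 187 to 341, 268 and 418. Both letters were higher there, with medians of 1.11 and 1.56.

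The widest gaps between letters rested on few R probes. In chr1:64686823-64728598, 7 F probes had a median of -1.72, of which 4 bright ones went from 4108, 5957, 6816 and 9171 to 774, 1175, 1619 and 1786, while 2 measured R probes had a median of 0.33. Another 2 R probes of that region, at 482 and 37.1 in PBS, were not above background in TSG-6 (at least 20.4-fold and 1.56-fold lower) and so are not in that median. This gap therefore rests on which R probes stayed detected. In chr18:5988500-6022000 the F probe went from 368 to 436 (0.59) and the R probe from 83.5 to 24.5 (-1.42). In chr1:115829055-115854155 the gap came from the single R probe at -5.53. The F median of 0.26 there also holds 1 lower F probe, from 780 to 115 (-2.41). The F strand of the first region was lower in several bright probes, and the other gaps came down to 1 probe.

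Called probes were also grouped by their place in the genome. Grouping region probes whose regions lie within 10 kb of each other gave 1965 groups, of which 272 held a called probe. The 53 groups with 3 or more called probes held 266 of the 527 calls (50.5%), and 49 of them held calls in a single direction. These groups were picked for holding calls, and a group joins both letters and overlapping regions. The share of all measured probes lying in them was not computed, so the 50.5% is no measure of clustering. The largest by calls was chr17:26911032-26917047, with 21 of 23 measured probes at least 2-fold higher. At chr12:110842149-110988678, 10 region names with 34 measured probes held 12 higher calls and 1 lower call, with a median of 0.66. At chr6:30983012-31293337, 11 region names with 28 measured probes held 10 higher calls (median 0.78). At chr7:4827340-4863315, 8 of 14 measured probes were at least 2-fold higher (median 1.05). Groups on chromosomes 3, 16 and 9 also held 8 calls each, all higher. The group at chr1:183781704-183834531 held 8 as well, all lower, among 11 measured probes (median -1.13). Neighbouring and overlapping regions are therefore not independent counts of changed places.

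Higher calls made up a smaller share of the measured probes at each step of region length, and the lower calls and medians showed no such order. The share of higher calls was 5.01% in the shortest quartile and 4.03%, 3.81% and 3.06% in the longer ones, and that of lower calls was 1.16%, 1.62%, 1.84% and 1.83%. The median difference was 0.24, 0.21, 0.22 and 0.25. Over all probes of the array 3.48% were higher and 3.16% lower. Chromosome 1 held 12 higher and 35 lower calls (1.70% and 4.95% of 707 measured probes). It was the only chromosome with more lower than higher calls under this scaling. Chromosome 16 held 19 higher and no lower calls (5.99% and 0% of 317). Chromosome 17 held 36 and 9 (5.85% and 1.46% of 615), with 21 of the 36 in the group at chr17:26911032-26917047. Chromosome 12 held 34 and 11 (6.85% and 2.22% of 496). The calls of chromosome 16 lay in 8 regions and those of chromosome 1 in 24. The X chromosome held 7 higher and 3 lower calls (2.29% and 0.980% of 306), with a median of 0.26 against 0.23 on the autosomes.

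For comparison, 40 annotated noncoding RNAs were listed, of which 24 were found on the array by symbol and 20 were measured on both arrays. Each gene was read from 1 probe, the brightest in PBS of those detected on both arrays. By that reading 1 was at least 2-fold higher (3.48% of all probes were) and none lower (3.16%), with a median of 0.10. A second probe of Airn, an imprinted antisense RNA, was at -1.67 beside -0.23 for the probe read. The one was Meg3, a maternally expressed imprinted RNA, which went from 1612 to 8225 at its brightest probe, with its 3 probes between 1.42 and 2.70. Malat1, an abundant nuclear RNA, stood at 840 and 671, a difference of 0.03. The tissue label was checked with hepatocyte markers: albumin (Alb) gave 62503 and 63130, the apolipoprotein Apoa1 59820 and 60228, and the 8 of 10 markers measured had a median of 0.37. Among these 8, 1 was at least 2-fold higher and none lower: Cyp2e1 went from 34030 to 60675, 2.27-fold. Of 6 markers of other tissues 5 were measured, of which 2 were at least 2-fold lower and none higher. The pancreatic elastase Cela1 went from 3544 to 843 and the lung surfactant gene Sftpc from 222 to 48.6. Prm1 of sperm differed by -0.54, Myh6 of heart by 0.29 and Gfap of astrocytes by 0.36, and Umod of kidney was detected on neither array. Their part in the region probes' differences was not tested.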

How the data were processed

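Both pooled RNA samples were read on one-colour Agilent arrays of an mm9 design, per the file headers, from 0.2 ug of RNA labelled with Cy3, per the labels' protocols. The deposited scanner files hold the processed intensity of each spot, made by the authors with Feature Extraction 11.5.1.1 and protocol GE1_1105_Oct12, per the file headers; the submitters' processing notes name version 10.7. The deposited value table holds log2 values that equalled the log2 processed signal minus 1 constant per array (11.42 for PBS, 11.08 for TSG-6), with column medians of -3.90 and -3.77. This settles its scale and direction, and it showed no centring of genes across arrays.

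Members were the non-control probes named by chromosome, range and strand letter. Flagged outlier spots (229 region spots on the PBS array, 416 on the TSG-6 array) were left out. Each value was the log2 processed signal relative to its array's 75th percentile, taken over every spot that is no control (3158 for PBS and 2476 for TSG-6). With 1 array per group the rule was a 2-fold size and no p-value; the number of arrays limits the precision. Bounds used each array's lowest detected signal. Named probes were the 10 highest and 10 lowest keeping their sign under every scaling, and the 3 largest bounds in each direction. Regions with both letters measured were named for the largest differences of a probe past 2-fold or for the 3 widest gaps between letters. The shortest and longest region, 4 groups of neighbours and the brightest 3 probes per array were also named. Region strands whose probes all passed 2-fold, and single probes that stood alone, were named after their values were seen. The same holds for the groups tied in calls with the last of the 4. The members and lists were chosen with earlier results of these data known. Symbols came from RefSeq (GRCm38.p6, names only), and 26762 other probes matched. Alternatives used limma 3.58.1 in R 4.3.3 (normexp with an offset of 50, quantile) and Python 3.11.15. Only the 2-fold rule was tested on simulated data, with noise of SD 0.13, as among replicate spots. That is less than the SD of 0.37 among probes of one region strand. Detection states, strand pairs, bounds and groups were not tested in this way.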

Additional observations from a re-analysis of the deposited data

How the results depend on the processing

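The counts of called region probes depended most on the scaling, the filter and the fold. Of 527 probes past 2-fold (361 higher, 166 lower), 191 (132 and 59) were called with normexp, 1111 (1035 and 76) with the percentile of unflagged spots and 1670 (1157 and 513) with no filter on dim probes. At 1.5-fold 2172 (1619 and 553) and at 3-fold 102 (62 and 40) passed; 135 region strands (95 and 40) passed by their median, and 25 (19 and 6) by every one of 3 or more probes. Spike-in scaling gave 110 higher and 485 lower, median scaling 237 higher, and centring on all measured probes 212 higher and 267 lower. The median of 0.23 became 0.52 with unflagged spots, 0.08 with centring and -0.14 with spike-in controls, where all probes had -0.22. With the software's less strict mark of significance over background, 82.9% and 84.7% of region probes were detected on the PBS and TSG-6 arrays, and with flagged spots kept 64.6% and 67.5%. That mark gave 75.3% and 77.2% in the shortest and 82.7% and 84.6% in the longest quartile, 77.2% and 78.4% on chromosome 10, and 88.2% and 90.1% on chromosome 17. By tertiles of length the shortest stood at 56.3% and 59.8% and the longest at 64.7% and 67.6%. Under that mark, both strands, F alone, R alone and neither were detected in 88.0%, 4.17%, 5.6% and 2.18% of regions on the PBS array and 90.9%, 3.23%, 3.98% and 1.90% on the TSG-6 array. Calling a strand from any one probe gave 87.4%, 5.12%, 5.41% and 2.09%, and 89.0%, 4.65%, 4.36% and 1.99%. Over 2290 pairs of F and R regions that overlap by 50%, F alone was 13.7% and neither 13.9% on the PBS array, and 13.4% and 10.8% on the TSG-6 array. Regions with both strand medians past 2-fold numbered 8, 5 with normexp and 21 with unflagged spots; those with 1 strand past numbered 36, 12 and 83. The cause of these shifts was not tested beyond what each setting itself changes. The 20 highest and lowest probes were chosen for keeping their sign under the scalings; their smallest size in any alternative that gave a value was 1.17, and 7 of them have none under the stricter filter on dim probes. Centring, the rule of 3 probes and the any-probe rule were chosen after seeing the data. The median region signal of 56.9 on the PBS array lay little above the lowest detected signal of 24.1, which limits what differences of dim probes can show. No paired analysis was possible because each group has 1 array.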
